A study of Mus musculus with 20 samples.

Results

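The T cell antigen receptor and the proteins that act next to it were followed through 37 genes, chosen by symbol out of the 49315 genes in the study's count table. They comprise 8 receptor chains and close partners, 4 further surface receptors, 4 kinases, 4 adaptors, 6 effectors, 8 inhibitors and 3 transcription factors of the NFAT family. All 37 were found in the table and passed the filter on low counts, so all were tested.

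The study asked which genes differ in splenic T effector cells that lack Pcbp2, a protein that binds cytosine-rich RNA. CKO mice carried a floxed Pcbp2 gene together with CD4cre, Cre recombinase driven by control sequences of Cd4 that act from thymic development onward, and their CTL littermates carried the floxed gene without Cre. CD4+CD25- cells, sorted to more than 99% purity per the labels, were taken after 6 h with beads that carry antibodies to CD3 and CD28, or unstimulated at baseline (0 h). RNA sequencing gave 3 CKO and 5 CTL libraries at 6 h, and 6 CKO and 6 CTL libraries at 0 h. A library is named here by the number in its title, such as 5.13. The labels do not tie libraries to animals, so the p-values measure the spread between these libraries. Both alleles and the Cre line are the same at both times. Cells cultured for 6 h with no beads are not among the libraries analysed, and what beads and culture each did cannot be told apart.

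The receptor on a CD4 T cell pairs an α and a β chain, which bind antigen, with the CD3γ, CD3δ, CD3ε and ζ chains, which carry the signal inward. When the receptor is engaged, the kinase Lck phosphorylates the CD3 and ζ tails, Zap70 docks there, and the scaffolds LAT and SLP-76 gather phospholipase Cγ and other effectors that lead to calcium, Ras, NF-κB and NFAT signals. Csk, a set of phosphatases and several small adaptors hold this machinery back in resting cells, and engaged receptors are taken into the cell and renewed.

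Levels are given in CPM, read counts scaled to a common library size with TMM factors, so each is a share of the library's transcripts, and in these bulk samples fewer cells of a type and less RNA per cell cannot be told apart. Pcbp2 stood at 7.27 to 11.3 CPM in CKO and 262 to 348 CPM in CTL at 6 h, and at 13.1 to 22.1 CPM in CKO and 261 to 396 CPM in CTL at 0 h, which fits each genotype label. Total read counts were 65.3 M to 76.8 M in CKO and 62.4 M to 69.4 M in CTL at 6 h, except for CTL 6 h library 4.24 with 26.4 M, and 68.8 M to 85.6 M in CKO and 71.0 M to 79.3 M in CTL at 0 h. That library stands apart and is described with its own values after the responses. Of the 8 CD4 T cell markers examined, 3 are also among the 37 genes, and all 8 were detected in every group. The labelled sex of CKO 0 h libraries 4.24 and 5.6 (male) disagreed with their Xist levels of 1160 and 1353 CPM, so sex was left out of the main model.

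The stretches of genome just before the start sites of the signal-carrying chains and of Lck are shown because most of these genes moved together at 6 h while Cd247 did not. Each is the 250 bases before a RefSeq start site (GRCm38.p6), written 5′ to 3′ on the gene's own strand. Capitals mark every match on either strand to the RUNX motif TGTGGT or the ETS motif GGAAGT, whose factor families are known regulators of T cell genes. Cd3g (chr9:44980432-44980681, minus strand) and Cd3d (chr9:44981536-44981785, plus strand) are divergent neighbours with start sites 1355 bases apart, and Cd3e (chr9:45009612-45009861, minus strand) starts 27825 bases beyond Cd3d. Cd247 (chr1:165788431-165788680, plus strand) lies on another chromosome. Lck has a distal start (chr4:129573642-129573891, minus strand) and a proximal one (chr4:129558373-129558622, minus strand), and gene counts do not separate them.
Cd3g: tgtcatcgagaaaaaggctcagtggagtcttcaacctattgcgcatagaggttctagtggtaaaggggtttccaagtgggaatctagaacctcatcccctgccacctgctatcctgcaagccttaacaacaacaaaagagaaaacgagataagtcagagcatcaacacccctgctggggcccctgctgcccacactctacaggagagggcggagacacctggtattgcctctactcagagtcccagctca
Cd3d: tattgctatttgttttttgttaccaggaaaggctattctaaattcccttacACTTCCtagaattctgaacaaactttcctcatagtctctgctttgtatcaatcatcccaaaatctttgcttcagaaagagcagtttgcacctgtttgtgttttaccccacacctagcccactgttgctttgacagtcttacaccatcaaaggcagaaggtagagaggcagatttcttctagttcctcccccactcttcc
Cd3e: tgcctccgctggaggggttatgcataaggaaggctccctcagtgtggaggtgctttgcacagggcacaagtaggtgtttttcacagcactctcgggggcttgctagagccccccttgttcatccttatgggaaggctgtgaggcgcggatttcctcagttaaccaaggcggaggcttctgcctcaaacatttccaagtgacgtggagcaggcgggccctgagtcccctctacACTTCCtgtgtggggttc
Cd247: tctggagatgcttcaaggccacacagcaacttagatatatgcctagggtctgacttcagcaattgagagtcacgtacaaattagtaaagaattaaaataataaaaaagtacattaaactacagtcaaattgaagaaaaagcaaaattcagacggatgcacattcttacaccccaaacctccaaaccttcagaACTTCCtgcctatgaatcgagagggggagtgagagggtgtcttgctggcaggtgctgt
Lck distal: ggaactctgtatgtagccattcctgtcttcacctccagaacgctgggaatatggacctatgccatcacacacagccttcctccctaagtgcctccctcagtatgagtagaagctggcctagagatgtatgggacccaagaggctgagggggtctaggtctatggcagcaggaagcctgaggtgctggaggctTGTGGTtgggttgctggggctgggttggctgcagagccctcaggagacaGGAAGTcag
Lck proximal: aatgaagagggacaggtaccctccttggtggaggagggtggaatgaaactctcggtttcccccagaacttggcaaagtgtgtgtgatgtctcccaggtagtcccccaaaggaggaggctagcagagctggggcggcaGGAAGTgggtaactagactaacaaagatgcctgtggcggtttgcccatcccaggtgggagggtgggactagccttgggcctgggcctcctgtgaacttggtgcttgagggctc
The ETS letters lay 18 to 13 bases before the Cd3e start, 58 to 53 before Cd247, 199 to 194 before Cd3d, 9 to 4 before the distal Lck start and 113 to 108 before the proximal one. Cd3g held neither motif. RefSeq entries were at hand for 28 of the 37 genes, with 38 start sites in all. ETS letters occurred in 17 of these 38 windows (44.7%), against 19.7% of 32851 windows of all genes, and RUNX letters in 6 (15.8%), against 14.0%. The letters AGATAA, read by the factors named after them, occurred in 10.5% of the 38 windows, against 9.99% of all. TATAAA, the core of the TATA box, occurred in 7.89%, against 12.4%. GGGCGG, the GC box, occurred in 34.2%, against 32.7%. No match shown overlapped another. A match describes letters only, and no binding was measured.

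Per kilobase of summed exon, the constant-region genes of the receptor were the most abundant of the 37 at 0 h. Trbc2 averaged 1153 ± 109 CPM per kb in CKO and 1128 ± 79.1 CPM per kb in CTL (SD, n = 6 each), and Trac, the α chain gene, 660 ± 66.3 in CKO and 695 ± 71.2 in CTL. Trbc1 reached 692 ± 57.5 CPM per kb in CKO and 648 ± 32.7 in CTL, so it and Trac did not differ beyond their spread. Lck followed with 393 ± 38.9 CPM per kb in CKO and 364 ± 33.3 in CTL, ahead of Lat with 271 ± 26.6 in CKO and 274 ± 20.6 in CTL. Of the CD3 genes, Cd3d stood at 185 ± 20.5 CPM per kb in CKO and 172 ± 18.4 in CTL, above Cd3g (126 ± 13.1 in CKO, 136 ± 14.5 in CTL) and Cd3e (125 ± 9.38 in CKO, 138 ± 11.2 in CTL), which overlapped each other. Cd247, the ζ chain gene, was lower at 80.9 ± 8.20 CPM per kb in CKO and 75.2 ± 10.9 in CTL. The length joins all annotated exons of a gene, so exons little used in these cells would lower its value per kb. In plain CPM at 0 h Cd247 averaged 431 in CKO and 401 in CTL. Cd3d averaged 335 in CKO and 313 in CTL, and Cd3e 511 in CKO and 564 in CTL. At the low end lay Themis, Nfatc2, Txk, Ubash3a, Bcl10, Malt1 and Trat1, none above 16.2 CPM per kb in either genotype. Trbc1 and Trbc2 are near-identical copies, so how the authors' counting split their reads is uncertain.

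After 6 h with beads most of the module fell in both genotypes. In CKO cells 25 of the 37 genes were called, 24 lower and 1 higher, where edgeR called 36.0% of all 28082 genes either way, 13.7% lower and 22.3% higher. In CTL cells 29 were called, 27 lower and 2 higher, where 60.7% of all genes were called either way, 20.5% lower and 40.2% higher. A gene is called when its two-sided quasi-likelihood p, adjusted by Benjamini and Hochberg over all 28082 genes, is under 0.05. All of the module is well expressed, so the 14189 genes with a mean of at least 1 CPM are the closer background: of these 24.3% were called lower in CKO and 36.8% in CTL. The median log2 fold of the module was −0.77 in CKO and −0.77 in CTL, against −0.14 and −0.18 for those 14189 genes. Another scaling moves that background median, in CTL to −0.10 with RLE factors and to 0.04 when only genes of at least 1 CPM enter the fit. The module's CTL median moved with it, to −0.69 and −0.55. The module lay 0.63 below the background in CKO and 0.59 below it in CTL each time. A change of scaling shifts all genes of a comparison nearly alike, so this distance cannot test the choice of scaling. Both genotypes shared 23 calls, 22 lower and 1 higher. Every 6 h library lay under every 0 h library for 25 of the 37 genes in CKO and 24 in CTL, where this held for 29.6% of the 14189 genes in CKO and 23.1% in CTL. The count with CTL 6 h library 4.24 left out was 27 lower and 1 higher in CKO, and 28 lower and 2 higher in CTL. That fit called 4584 genes of at least 1 CPM lower in CKO and 5361 in CTL. The main fit called 3450 and 5215 such genes lower.

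**Figure D1:**
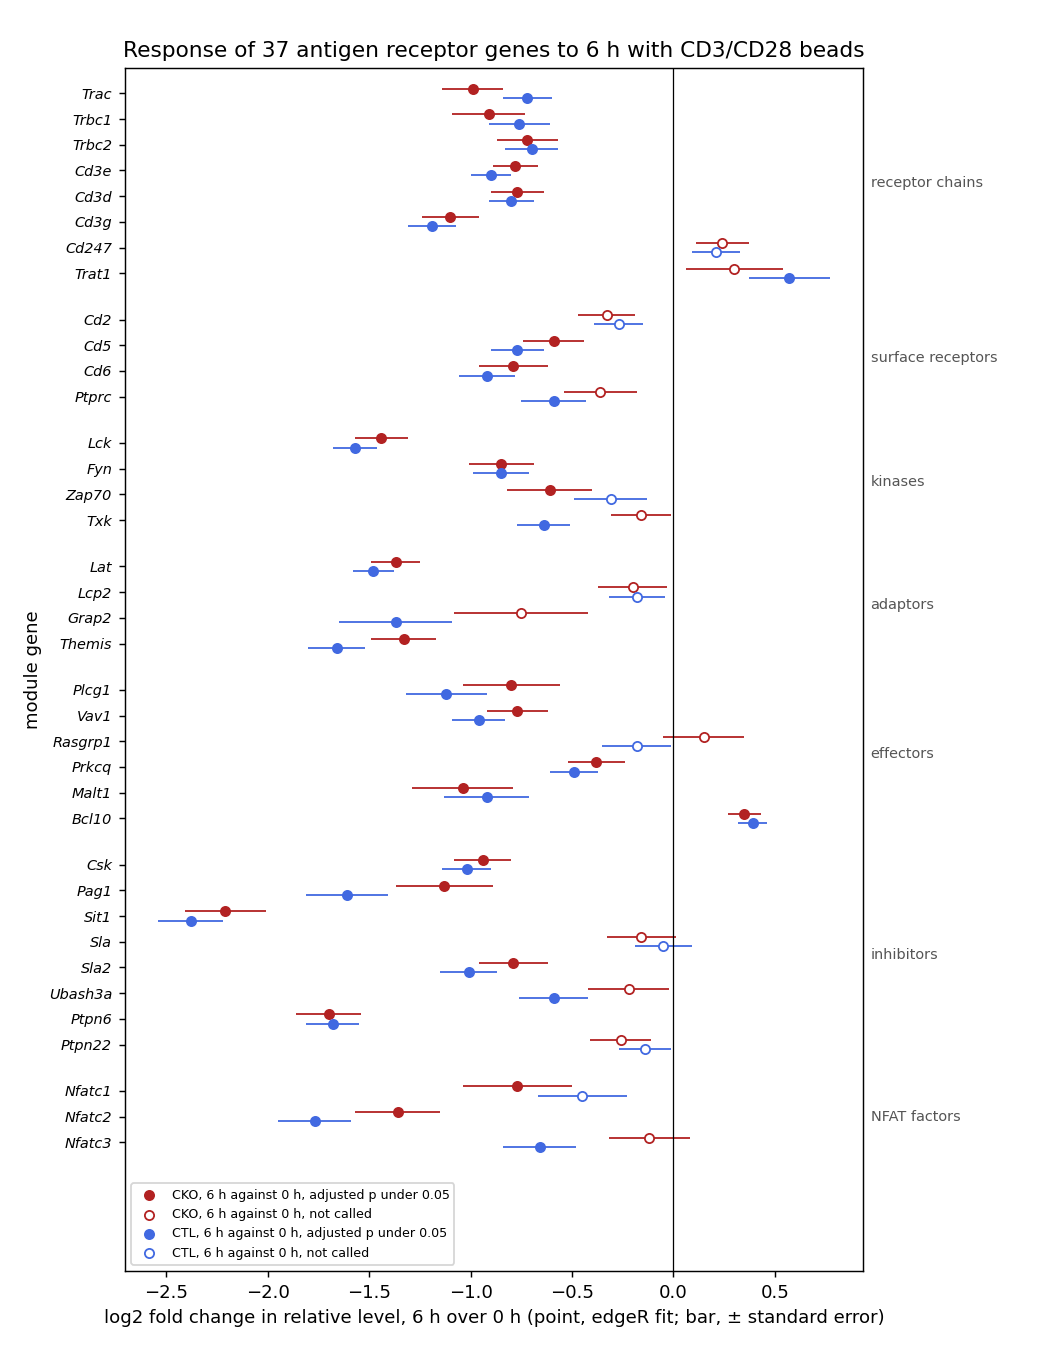
Log2 fold change in relative level at 6 h over 0 h for each of the 37 genes, grouped by role. Points are edgeR estimates for CKO (red) and CTL (blue), filled where called, and bars are ± standard error. Sit1 lies farthest to the left at −2.21 in CKO and −2.38 in CTL, and Bcl10 is the one gene called to the right of 0 in both.

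The antigen-binding chains and the 3 CD3 genes all fell, while the ζ chain gene did not. Trac (chromosome 14, 54220521 to 54224206) had 326, 278 and 327 CPM in the CKO libraries at 6 h, against 565 to 717 CPM (median 592) in CKO at 0 h. In CTL it had 532, 372, 309, 392 and 370.4 CPM at 6 h, against 545 to 727 CPM (median 661) at 0 h. In neither genotype did the groups overlap, and the highest CTL value at 6 h belonged to library 4.24. The log2 fold was −0.99 ± 0.15 in CKO and −0.72 ± 0.12 in CTL (± standard error, edgeR adjusted p = 6.79e-05 and 0.000117).

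Trbc1, a β chain constant gene, had 302, 285 and 240.2 CPM in CKO at 6 h, against 457 to 576 CPM (median 506) at 0 h. In CTL it had 465, 268, 263, 207 and 231.5 CPM at 6 h, against 446 to 511 CPM (median 493) at 0 h. The CKO groups were apart, while in CTL library 4.24, at 465 CPM, reached into the 0 h range and the other 4 libraries lay well under it. The fall was −0.91 ± 0.18 in CKO and −0.76 ± 0.15 in CTL, and −0.99 ± 0.09 in CTL without that library. Trbc2 had 523, 501 and 429 CPM in CKO at 6 h, against 707 to 925 CPM (median 803) at 0 h, and in CTL 691, 467, 455, 375 and 409.8 CPM at 6 h, against 710 to 862 CPM (median 774) at 0 h. Its groups did not overlap, with log2 folds of −0.72 ± 0.15 in CKO and −0.70 ± 0.13 in CTL.

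Cd3e, which encodes CD3ε, had 313, 311 and 268 CPM in CKO at 6 h, against 467 to 553 CPM (median 516) at 0 h. In CTL it had 301, 324, 349.9, 277.5 and 261 CPM at 6 h, against 525 to 630 CPM (median 546) at 0 h. All 6 h values of both genotypes were under all 0 h values, with log2 folds of −0.78 ± 0.11 in CKO and −0.90 ± 0.10 in CTL (edgeR adjusted p = 4.91e-05 and 5.17e-07). Cd3d, for CD3δ, had 212, 205 and 171 CPM in CKO at 6 h, against 296 to 405 CPM (median 325) at 0 h, and in CTL 219, 184, 189, 148 and 156.5 CPM at 6 h, against 271 to 371 CPM (median 308) at 0 h. Its groups were likewise apart, with folds of −0.77 ± 0.13 in CKO and −0.80 ± 0.11 in CTL.

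Cd3g, for CD3γ, had the lowest fold estimate of the 8 genes of receptor chains and close partners in both genotypes. It had 203, 204 and 166 CPM in CKO at 6 h, against 372 to 487 CPM (median 404) at 0 h. In CTL it had 214, 207, 231, 157 and 159.9 CPM at 6 h, against 391 to 529 CPM (median 438) at 0 h. The groups were far apart, and the level was 2.15-fold lower in CKO and 2.29-fold lower in CTL (log2 −1.10 ± 0.14 and −1.19 ± 0.12, edgeR adjusted p = 1.26e-05 and 2.15e-07). Cd3g and its divergent neighbour Cd3d, whose upstream sequences are given above, thus both fell, by sizes whose difference was not tested.

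Cd247 had 517, 515 and 491 CPM in CKO at 6 h, against 380 to 485 CPM (median 432) at 0 h. The CTL values were 423, 546, 528, 384 and 432.5 CPM at 6 h, against 318 to 486 CPM (median 394) at 0 h. The 3 CKO values at 6 h lay just above all 6 at 0 h, and the CTL groups overlapped. The log2 fold of 0.24 ± 0.13 in CKO (95% interval −0.04 to 0.51) and 0.21 ± 0.12 in CTL (−0.03 to 0.45) was not called (edgeR adjusted p = 0.176 and 0.127). Under RLE factors, a fit of genes of at least 1 CPM, or DESeq2 it was called higher in CTL, at log2 folds of 0.29 to 0.44, and in CKO under the second of these at 0.38. The exons of Cd247 share 3007 bases with Pou2f1 on the other strand, and the strand setting of the counting is not given in the sources used here.

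Trat1, a transmembrane adaptor that associates with the receptor, was one of the 2 called rises in CTL. It had 63.9, 62.8 and 62.4 CPM in CKO at 6 h, against 30.1 to 72.2 CPM (median 48.6) at 0 h. Its CTL values were 48.0, 117, 79.3, 73.9 and 103 CPM at 6 h, against 42.2 to 71.8 CPM (median 55.7) at 0 h. CTL library 4.24 was the lowest of its group, inside the 0 h range, and the other 4 were above that range. The log2 fold was 0.30 ± 0.24 in CKO, not called, and 0.57 ± 0.20 in CTL (edgeR adjusted p = 0.332 and 0.0212). The CTL call ended in 6 of the 20 fits that left out 1 library, with an adjusted p of up to 0.102, without CTL 0 h library 5.6.

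**Figure D2:**
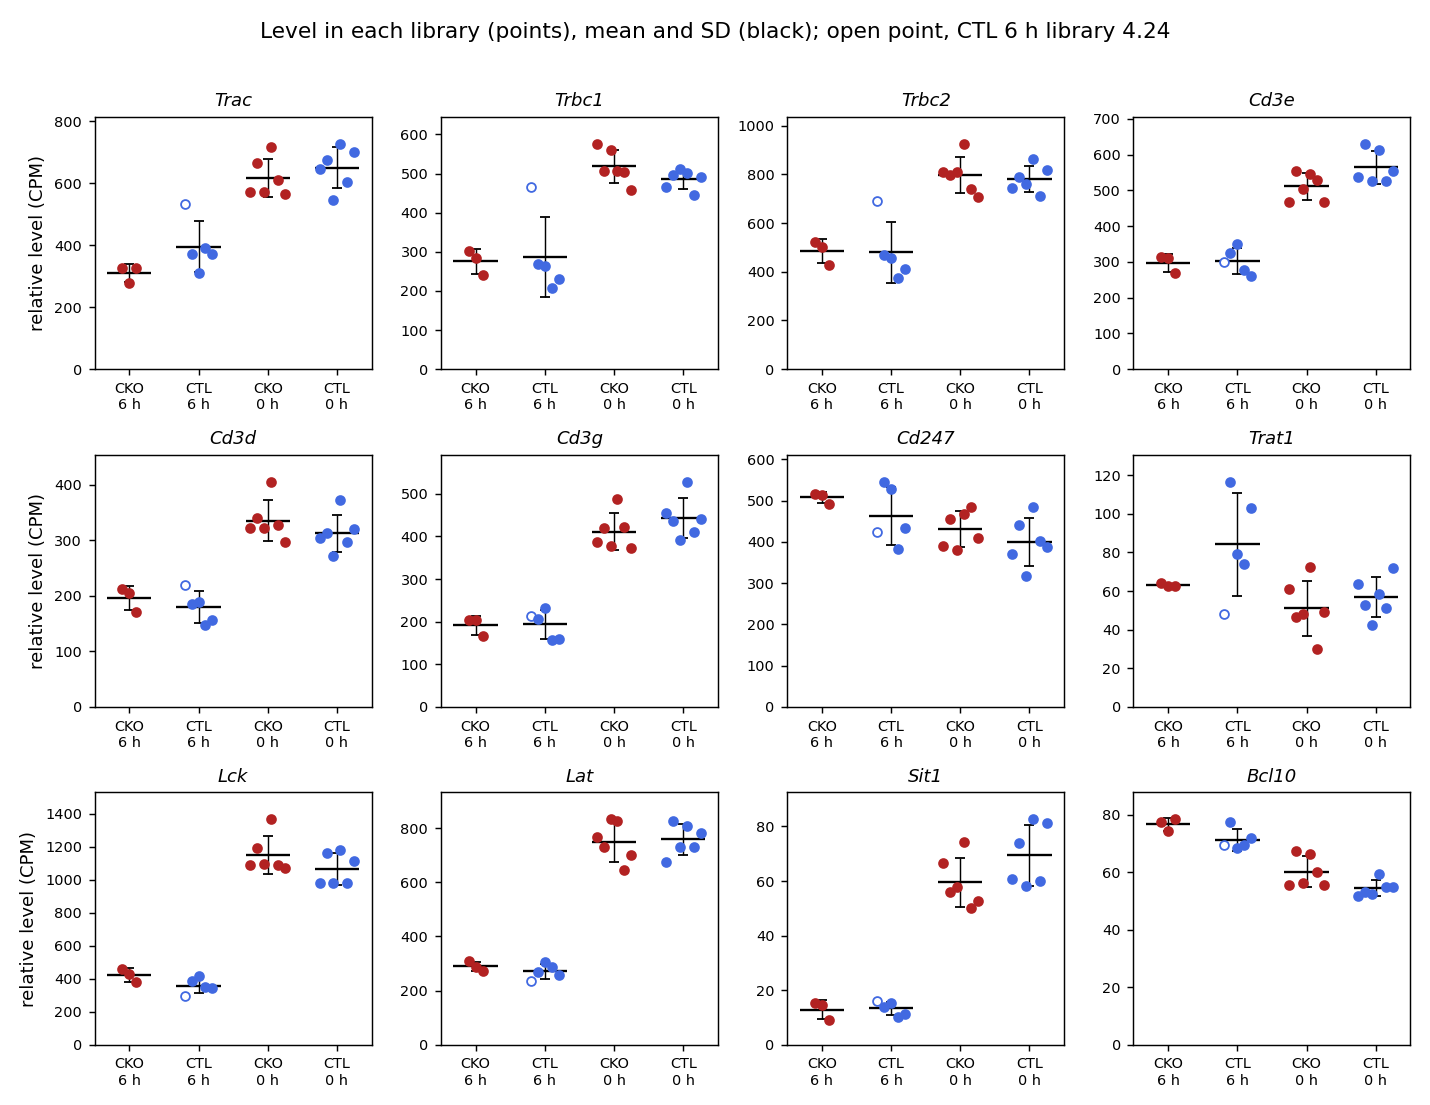
Level of 12 genes (CPM, linear axes from 0) in each library, with CKO in red and CTL in blue, and 6 h left of 0 h. Black bars are group means with SD, and the open point is CTL 6 h library 4.24. Cd3g at 6 h lies between 157 and 231 CPM, under every 0 h library, whereas neither Cd247 nor Trat1 was called lower.

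Among the 4 other surface receptors, Cd5 and Cd6, scavenger receptor family members that dampen or tune receptor signals, fell in both genotypes. Cd5 averaged 376 ± 24.8 CPM at 6 h and 564 ± 56.7 CPM at 0 h in CKO, and 310 ± 63.4 CPM at 6 h and 530 ± 65.1 CPM at 0 h in CTL (SD, n = 3, 6, 5 and 6). The falls of Cd6 were −0.79 ± 0.17 in CKO and −0.92 ± 0.14 in CTL. Ptprc, which encodes CD45, the phosphatase that keeps Lck ready, had 2261, 2262 and 2523 CPM in CKO at 6 h, against 2714 to 3273 CPM (median 3066) at 0 h. The 5 CTL libraries had 969, 2059, 2185, 2283 and 2155 CPM at 6 h, against 2762 to 3125 CPM (median 2876) at 0 h. Both genotypes were lower at 6 h with no overlap, but the fall was called in CTL alone (−0.36 ± 0.18 in CKO, −0.59 ± 0.16 in CTL, edgeR adjusted p = 0.132 and 0.00345). Without CTL library 4.24, which was far the lowest, it was called in both (−0.35 ± 0.08 in CKO and −0.41 ± 0.08 in CTL, edgeR adjusted p = 0.00197 and 0.000211). Cd2, an adhesion receptor, stood at −0.33 ± 0.14 in CKO and −0.27 ± 0.12 in CTL and was not called. With libraries blocked by their number it was called in CTL (−0.30 ± 0.12, edgeR adjusted p = 0.0389), and without library 4.24 in both genotypes (−0.33 ± 0.13 in CKO and −0.32 ± 0.12 in CTL, edgeR adjusted p = 0.0447 and 0.0275).

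Of the kinases, Lck, which starts the cascade, fell most. It had 461, 431 and 381 CPM in CKO at 6 h, against 1074 to 1367 CPM (median 1094) at 0 h. CTL libraries had 294, 386.5, 418, 352 and 344 CPM at 6 h, against 978 to 1181 CPM (median 1047) at 0 h. The ranges were far apart in both genotypes, and the level was 2.72-fold lower in CKO and 2.97-fold lower in CTL (log2 −1.44 ± 0.13 and −1.57 ± 0.11, edgeR adjusted p = 1.65e-07 and 1.7e-09). Fyn, the related Src family kinase, fell 1.81-fold in CKO and 1.80-fold in CTL. Zap70, the kinase that docks on the phosphorylated chains, was called lower in CKO (−0.61 ± 0.21, adjusted p = 0.0307) and not in CTL (−0.31 ± 0.18, adjusted p = 0.144), but with libraries blocked by number it was called in CTL too (−0.39 ± 0.14, adjusted p = 0.0239), while without CTL 6 h library 4.24 its CTL fold was −0.16 ± 0.15 (adjusted p = 0.395). RLE factors, a fit of genes of at least 1 CPM and a term for labelled sex each ended its CKO call. So did 4 of the 20 fits that left 1 library out. Txk, a Tec family kinase, was called in CTL alone (−0.16 ± 0.15 in CKO, −0.64 ± 0.13 in CTL). The difference of the 2 responses, 0.47 ± 0.19, was not called (edgeR adjusted p = 0.868).

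The adaptor Lat, the membrane scaffold on which the signal complex is built, was 2.59-fold lower in CKO and 2.80-fold lower in CTL. It had 308, 289 and 274 CPM in CKO at 6 h, against 645 to 832 CPM (median 748) at 0 h, and in CTL 235, 267, 305, 288 and 259 CPM at 6 h, against 674 to 825 CPM (median 757) at 0 h. These ranges did not meet in either genotype. Themis, which is known for its part in thymic selection and works next to Lat, was among the 5 deepest falls in CTL. It had 58.8, 67.6 and 68.4 CPM in CKO at 6 h, against 135 to 185 CPM (median 165) at 0 h. The CTL values were 38.9, 56.9, 78.2, 61.4 and 62.0 CPM at 6 h, against 168 to 215 CPM (median 185) at 0 h. Every library at 6 h was well under every library at 0 h, and the log2 fold was −1.33 ± 0.16 in CKO and −1.66 ± 0.14 in CTL. Grap2, which encodes GADS, the bridge from LAT to SLP-76, was called in CTL alone (−0.75 ± 0.33 in CKO, −1.37 ± 0.28 in CTL). Its lowest value by far was 46.9 CPM in CTL library 4.24, and without that library it was called in both genotypes, at −0.74 ± 0.17 in CKO and −1.12 ± 0.15 in CTL (edgeR adjusted p = 0.00136 and 8.92e-06). Its CKO call was also gained with libraries blocked by number (−0.86 ± 0.34, adjusted p = 0.0496). Lcp2, which encodes SLP-76, was not called in either genotype (−0.20 ± 0.17 in CKO, −0.18 ± 0.14 in CTL).

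Of the 6 effectors, 4 were called lower and 1 higher in each genotype. Plcg1, the phospholipase that opens the calcium branch, fell 1.74-fold in CKO and 2.17-fold in CTL, and the exchange factor gene Vav1 fell 1.71-fold in CKO and 1.94-fold in CTL. Without library 4.24 the CTL values were 1.87-fold for Plcg1 and 1.74-fold for Vav1. Malt1, a protease and scaffold of the NF-κB branch, fell by 1.04 ± 0.25 on the log2 scale in CKO and by 0.92 ± 0.21 in CTL, and Prkcq, the protein kinase C isoform of that branch, fell by 0.38 ± 0.14 in CKO and by 0.49 ± 0.12 in CTL. Leaving out 1 library ended the CKO call on Prkcq in 9 of 20 fits. This call also ended in 6 other settings, DESeq2 and RLE factors among them. That on Plcg1 ended without CKO 6 h library 11.18 (adjusted p = 0.0678). Rasgrp1, which activates Ras, was not called (0.15 ± 0.20 in CKO, −0.18 ± 0.17 in CTL).

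Bcl10, which joins Malt1 to its upstream scaffold, was the exception, called higher in both genotypes. It had 77.3, 74.1 and 78.3 CPM in CKO at 6 h, against 55.4 to 67.2 CPM (median 58.3) at 0 h. Its CTL values were 69.3, 77.4, 68.3, 69.2 and 71.7 CPM at 6 h, against 51.7 to 59.5 CPM (median 54.0) at 0 h. The groups did not overlap in either genotype, though the size was modest, with a log2 fold of 0.35 ± 0.08 in CKO and 0.39 ± 0.07 in CTL (edgeR adjusted p = 0.00337 and 0.00019). The CKO call ended without CKO 0 h library 5.6 or 9.20. Bcl10 also had the narrowest 95% intervals of the 37, at 0.18 to 0.52 in CKO and 0.24 to 0.53 in CTL.

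Of the 8 inhibitors, 5 were called lower in CKO and 6 in CTL, with a median log2 fold of −0.86 in CKO and −1.02 in CTL. Sit1, a small transmembrane adaptor that restrains receptor signals, was 4.63-fold lower in CKO and 5.19-fold lower in CTL, the deepest fall of the 37 in each. It had 15.2, 14.4 and 8.95 CPM in CKO at 6 h, against 50.2 to 74.1 CPM (median 57.0) at 0 h. The 5 CTL libraries had 16.0, 14.0, 15.3, 10.3 and 11.4 CPM at 6 h, against 58.3 to 82.6 CPM (median 67.4) at 0 h. No 6 h library came near a 0 h library, and the log2 fold was −2.21 ± 0.20 in CKO and −2.38 ± 0.16 in CTL (edgeR adjusted p = 1.35e-07 and 1.49e-09).

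Ptpn6, which encodes the phosphatase SHP-1, had 114, 96.6 and 126.5 CPM in CKO at 6 h, against 310 to 441 CPM (median 357) at 0 h. CTL libraries had 76.9, 117, 103, 138.5 and 119 CPM at 6 h, against 318 to 386 CPM (median 367) at 0 h. It fell 3.26-fold in CKO and 3.20-fold in CTL with the groups far apart. Pag1, the anchor that brings Csk to the membrane, had 101, 109.6 and 81.1 CPM in CKO at 6 h, against 178 to 260 CPM (median 213) at 0 h, and in CTL 33.5, 75.6, 106, 89.9 and 89.4 CPM at 6 h, against 201 to 285 CPM (median 239) at 0 h. Its log2 fold was −1.13 ± 0.24 in CKO and −1.61 ± 0.20 in CTL, and −1.41 ± 0.13 in CTL without library 4.24, its lowest. Csk, the kinase that switches Lck off, fell 1.92-fold in CKO and 2.03-fold in CTL. Sla2, an adaptor that limits surface receptor, fell 1.72-fold in CKO and 2.01-fold in CTL, and 731 of its exon bases are shared with Rab5if on the other strand. Ubash3a, a phosphatase family member, was called in CTL alone (−0.22 ± 0.20 in CKO, −0.59 ± 0.17 in CTL). Sla, the relative of Sla2, and Ptpn22, a phosphatase of Src family kinases, were not called in either genotype, with log2 folds between −0.26 and −0.05.

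Of the NFAT factors, which calcium signals send to the nucleus, Nfatc2 fell furthest. It had 63.5, 70.7 and 54.0 CPM in CKO at 6 h, against 127 to 208 CPM (median 162) at 0 h. The CTL values were 26.3, 41.3, 60.9, 47.1 and 46.1 CPM at 6 h, against 110 to 174 CPM (median 152) at 0 h. The groups were apart in both genotypes, with log2 folds of −1.36 ± 0.21 in CKO and −1.77 ± 0.18 in CTL (edgeR adjusted p = 0.000116 and 2.88e-07). Nfatc1 was called lower in CKO (−0.77 ± 0.27, adjusted p = 0.0326), with the groups overlapping and the call lost when any of 5 libraries was left out, and not in CTL (−0.45 ± 0.22, adjusted p = 0.0895, or −0.28 ± 0.20 and 0.246 without CTL 6 h library 4.24). With libraries blocked by number it was called in CTL as well (−0.56 ± 0.17, adjusted p = 0.00784). The CKO call on Nfatc1 also ended in a fit of genes of at least 1 CPM and with a term for labelled sex. Nfatc3 had 384, 395 and 294 CPM in CKO at 6 h, against 317 to 476 CPM (median 385) at 0 h, and in CTL 133, 255, 348, 258 and 251.5 CPM at 6 h, against 300.2 to 475 CPM (median 403) at 0 h. It overlapped in both genotypes and was called lower in CTL alone (−0.12 ± 0.20 in CKO, −0.66 ± 0.18 in CTL, edgeR adjusted p = 0.662 and 0.00359).

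The falls came with lower summed markers of other cell types as well, whose part in them was not tested. The 8 B cell markers summed to 20 to 88.4 CPM in CKO and 16.3 to 36.7 CPM in CTL at 6 h, against 37.3 to 199 CPM in CKO and 40.2 to 310 CPM in CTL at 0 h. The 8 myeloid markers summed to 42.7 to 58.5 CPM in CKO and 35.8 to 59.4 CPM in CTL at 6 h, against 83.4 to 152 CPM in CKO and 69.0 to 144 CPM in CTL at 0 h. No marker on either list was at 0 in a group. The 8 CD4 T cell markers summed to 3201 to 4292 CPM in CKO and 2896 to 4233 CPM in CTL at 6 h, against 5265 to 6606 CPM in CKO and 4773 to 6626 CPM in CTL at 0 h, far above both. Il2ra, which encodes CD25 and is induced by activation, was 8.24-fold higher at 6 h in CKO and 10.8-fold higher in CTL.

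No response differed between genotypes by the test of the difference itself. EdgeR called 0 of the 37 genes, where it called 0% of all 28082, with 1 at an unadjusted p under 0.05 (Txk), where 3.72% of the 14189 genes of at least 1 CPM were, and 0 called by DESeq2. The smallest adjusted p was 0.868. Point estimates of the CKO response minus the CTL response ran from −0.32 for Nfatc1 to 0.63 for Grap2 on the log2 scale. Without CTL 6 h library 4.24 these 2 values were −0.48 and 0.38. The 95% intervals of 33 of the 37 genes lay within a 2-fold difference either way, and 18 within 1.5-fold, so larger differences are not covered for the rest. For the 6 genes called in CTL alone and the 2 called in CKO alone, the difference of the responses was thus tested and not called.

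Between genotypes at 6 h, 0 of the 37 genes was called, where edgeR called 0.253% of all genes. DESeq2 also called 0, and 5 were at an unadjusted p under 0.05, where 18.3% of the 14189 genes of at least 1 CPM were. The 4 with the smallest p were Nfatc3, Nfatc2, Trac and Plcg1. Nfatc3 had the CKO values 384, 395 and 294 CPM and the CTL values 133, 255, 348, 258 and 251.5 CPM, which overlap (log2 0.52 ± 0.21, 95% interval 0.09 to 0.95). Nfatc2 stood at 0.50 ± 0.20 and Trac at −0.35 ± 0.15 in CKO over CTL, with the per-library values given above. Plcg1 had 387, 407 and 329 CPM in CKO and 101, 279, 364, 282 and 256 CPM in CTL (0.55 ± 0.23). For each of the 4 the edgeR adjusted p was 0.317, and CTL library 4.24 was the extreme value of its group. Without that library their log2 folds were 0.36 ± 0.15 for Nfatc3 and 0.36 ± 0.17 for Nfatc2. Trac stood at −0.22 ± 0.11 and Plcg1 at 0.34 ± 0.11 in that fit. The standard errors were smaller too, and the unadjusted edgeR p of Plcg1 was 0.00705, against 0.0291 in the main fit. Trat1 stood at −0.57 ± 0.22 there (edgeR adjusted p = 0.411). The smallest edgeR adjusted p of the module in that fit was 0.28, for Plcg1.

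Across the module 28 of 37 log2 folds at 6 h were above 0, where 57.9% of the 14189 genes were, and the median was 0.13, against 0.07 for those genes. The count changed with the fit. With only genes of at least 1 CPM, 18 of the 37 were above 0, and the module's median lay 0.03 above that of the genes. It was again 28 of the 37 with RLE factors and with DESeq2, 31 with libraries blocked by number, and 26 without library 4.24. Vav1 and Csk were higher in all 3 CKO libraries than in all 5 CTL libraries. Groups did not overlap, either way, for 6.69% of all genes and 8.98% of those of at least 1 CPM. These 2 of the 37 are no more than such shares give. Vav1 had 167, 173 and 171 CPM in CKO, against 81.3, 148, 164, 153 and 152 CPM in CTL, and Csk 281, 271 and 267 CPM in CKO, against 163, 254, 249, 237 and 247 CPM in CTL. Neither was called (0.29 ± 0.15 and 0.25 ± 0.14, edgeR adjusted p = 0.317 and 0.319), and without library 4.24, the lowest for both, the folds were 0.14 ± 0.07 for Vav1 and 0.14 ± 0.11 for Csk. Of the 95% intervals, 35 lay within a 2-fold difference and 21 within 1.5-fold. The lowest bound was −0.94 for Trat1 and the highest 1.05 for Grap2, whose fold was 0.38 ± 0.32, or 0.13 ± 0.17 without library 4.24. Summed regulatory T cell markers (Foxp3, Il2ra and Ikzf2) stood beside this at 374 to 570 CPM in CKO and 224 to 416 CPM in CTL. Il2ra overlapped, at 120 to 309 CPM in CKO and 89.4 to 299 CPM in CTL. Foxp3 (93.4 to 138 CPM in CKO, 37.4 to 62.3 CPM in CTL) and Ikzf2 (126 to 168 CPM in CKO, 54.3 to 101 CPM in CTL) did not. EdgeR called 0 of the 3 (smallest adjusted p = 0.0528), with 2 at an unadjusted p under 0.05 and 1 called by DESeq2. The part of these markers was not tested.

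At 0 h again 0 of the 37 genes was called between genotypes, where edgeR called 0.705% of all genes, with 2 at an unadjusted p under 0.05, where 11.7% of the 14189 genes of at least 1 CPM were, and 0 called by DESeq2. No gene had groups that did not overlap, where 1.93% of all genes did. Set side by side in the 5 pairs of 0 h libraries that share a number, 9 of the 37 genes, Sla, Bcl10 and Plcg1 among them, were higher in CKO in every pair and 2, Sla2 and Themis, were lower in every pair, where 15.2% and 11.1% of the 14189 genes of at least 1 CPM were. The 2 genes at an unadjusted p under 0.05 were Sla and Bcl10. Sla had 206 to 307 CPM (median 280) in CKO and 175 to 234 CPM (median 205) in CTL, with a log2 fold of 0.36 ± 0.14 (edgeR adjusted p = 0.375), or 0.32 ± 0.11 with libraries blocked by number (adjusted p = 0.224). Bcl10 stood at 0.14 ± 0.07 (edgeR adjusted p = 0.557). The receptor chains and close partners lay between −0.15, for the adaptor Trat1, and 0.11, with Cd3e at −0.14 ± 0.09 (95% interval −0.33 to 0.04) and Trac at −0.08 ± 0.12 (−0.32 to 0.17). The kinase gene Lck stood at 0.11 ± 0.10 (−0.10 to 0.32). All 37 intervals lay within a 2-fold difference and 31 within 1.5-fold, from a lowest bound of −0.79 for Grap2 to a highest of 0.75 for Malt1. The smallest adjusted p was 0.0885, for Sla, when CTL 6 h library 4.24 was left out of the shared fit. Summed regulatory T cell markers were 170 to 548 CPM in CKO and 123 to 240 CPM in CTL at 0 h, where edgeR again called 0 of the 3, with 2 at an unadjusted p under 0.05 and 1 called by DESeq2. Of the 8 CD4 T cell markers edgeR called 1 at 0 h, Il7r, lower in CKO (adjusted p = 0.0359). It had 234 to 366 CPM in CKO and 425 to 526 CPM in CTL.

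**Figure D3:**
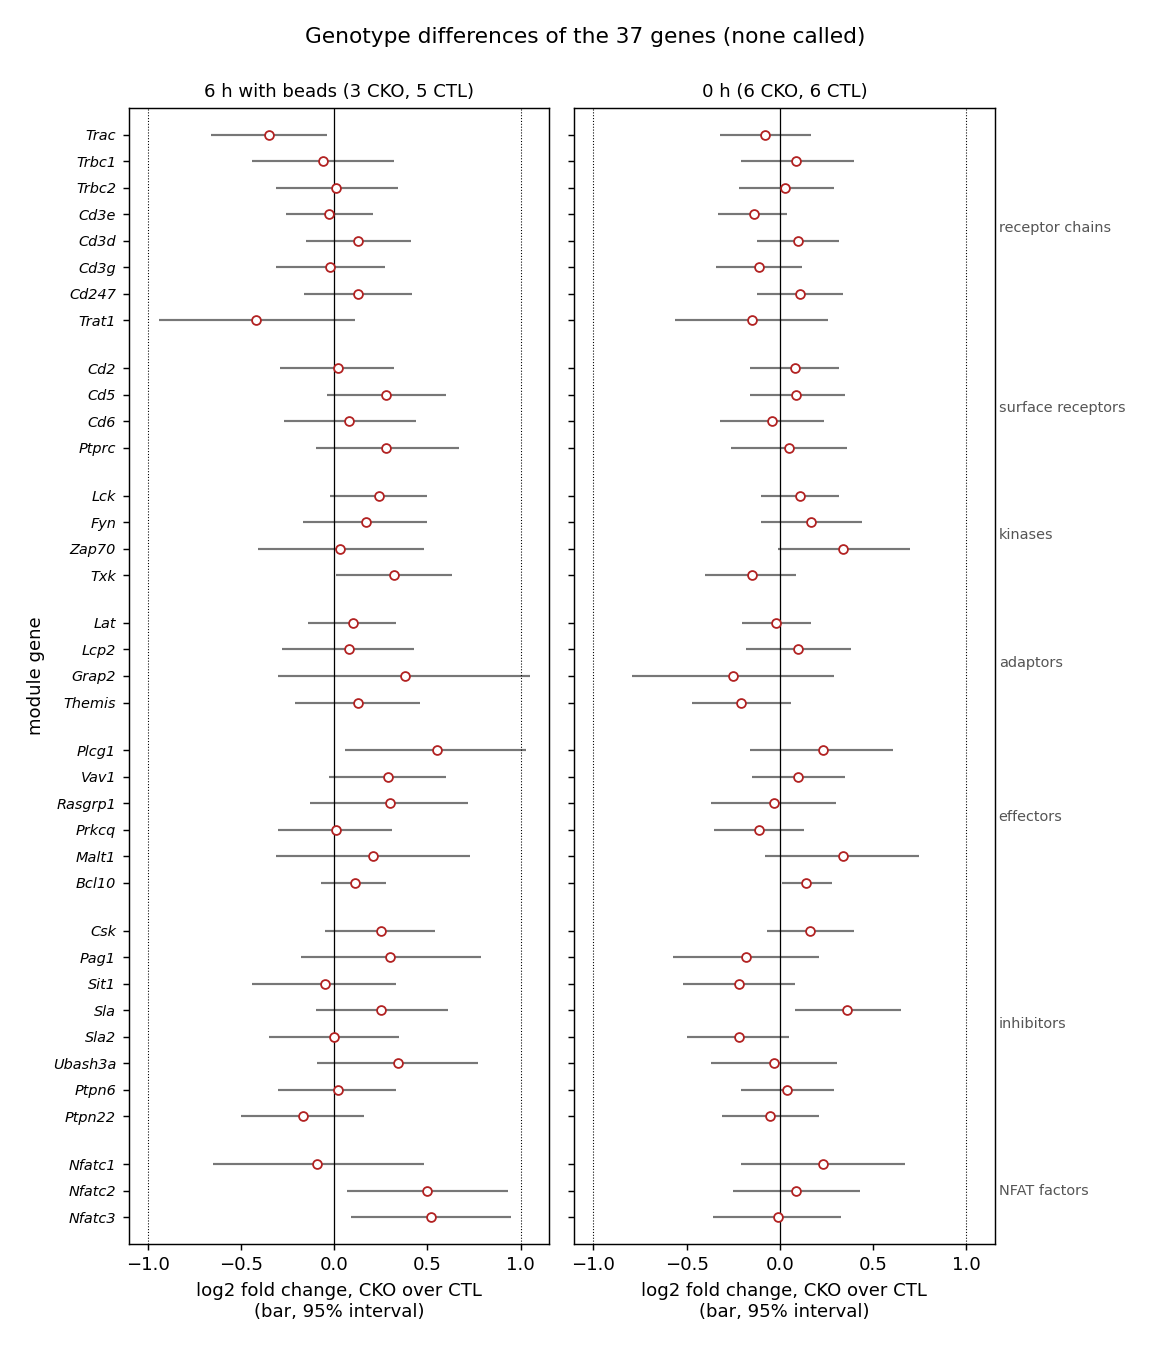
Log2 fold change of CKO over CTL for each of the 37 genes at 6 h (left) and 0 h (right). Points are edgeR estimates, bars are 95% intervals, and dotted lines mark a 2-fold difference. No gene is called at either time, and at 0 h every bar lies inside the dotted lines.

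Some libraries stood above or below their group for most of the module. At 0 h, libraries numbered 5.13 were the highest, with a median log2 ratio over the 37 genes of 0.22 in CKO and 0.18 in CTL to the mean of their own group's other libraries. Libraries numbered 5.6 were the lowest, at −0.13 in CKO and −0.24 in CTL, and also had the highest summed B cell markers, 199 CPM in CKO and 310 CPM in CTL. Whether these are related was not tested.

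Within the module, short genes were high and long ones low in CTL 6 h library 4.24, set against the other 4 of its group: Trbc1 (0.75 kb of exon) was at 191.8% of the mean of the others, Trac (0.94 kb) at 147.3% and Cd3e (4.08 kb) at 99.2%. Plcg1 (7.86 kb) was at 34.1%, Ptprc (18.31 kb) at 44.6% and Grap2 (6.24 kb) at 21.3%. Over the 37 genes the log2 ratio to the other libraries correlated with log2 exon length at r = −0.78, but over 14156 genes at −0.07, inside the −0.20 to 0.16 of the other 19 libraries. In those 19, each set against its own group, r over the 37 genes ran from −0.46 to 0.81. The ends were CKO 6 h library 5.6 and CKO 0 h library 11.18. The value of r alone thus does not mark library 4.24, but r does not give the size of a trend. The log2 ratios of the 37 genes spanned −2.20 to 0.95 in library 4.24, against −0.21 to 0.21 in CKO 0 h library 11.18. These correlations run across genes of 1 library, which share its depth, and are a description only. The labels report that RNA integrity varied but give no value per library, so its part was not tested.

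**Figure D4:**
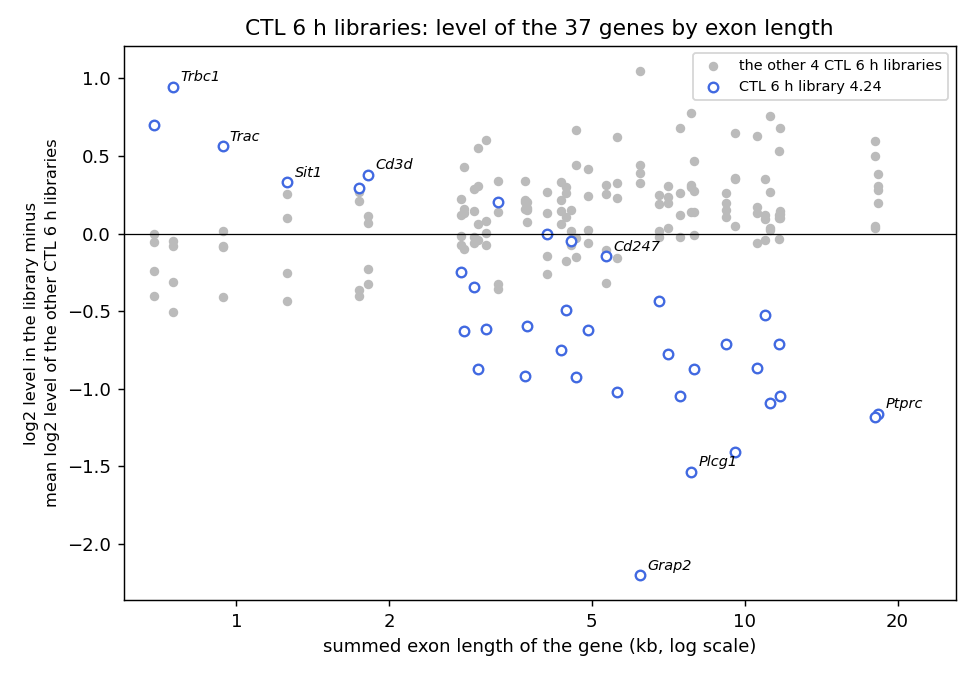
Log2 level of the 37 genes in each CTL 6 h library minus the mean log2 level of the other CTL 6 h libraries, against summed exon length on a log axis. Open points are library 4.24, and gray points the other 4. Library 4.24 runs from 0.95 for Trbc1 at the short end down to −2.20 for Grap2, with Ptprc, the longest gene, at −1.16.

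Beyond the 37 genes, a wider list of 74 genes of the same pathway fell in part at 6 h. In CKO cells 32 were called lower, 7 higher and 35 not, and in CTL cells 46 lower, 5 higher and 23 not, with a median log2 fold of −0.32 in CKO and −0.43 in CTL. Of all genes 13.7% were called lower and 22.3% higher in CKO, and 20.5% lower and 40.2% higher in CTL, and of the 14189 genes of at least 1 CPM 24.3% were called lower in CKO and 36.8% in CTL. Called lower with the smallest adjusted p were Ptpn7, a phosphatase of MAP kinases (−1.98 ± 0.14 in CKO, −2.05 ± 0.11 in CTL), Rac2, a GTPase of the actin skeleton (−1.43 ± 0.15 in CKO, −1.64 ± 0.13 in CTL), Ptprcap, which binds CD45 (−1.81 ± 0.15 in CKO, −1.55 ± 0.12 in CTL), and Tespa1 (−1.85 ± 0.19 in CKO, −1.80 ± 0.16 in CTL). Among those called higher were Cblb, a ubiquitin ligase that restrains activation (529 ± 32.1 CPM at 6 h and 164 ± 8.08 CPM at 0 h in CKO, 404 ± 99.1 CPM at 6 h and 167 ± 8.99 CPM at 0 h in CTL), the adaptor Sh2d2a (1.26 ± 0.15 in CKO, 1.13 ± 0.13 in CTL) and the calcium channel gene Orai1 (0.80 ± 0.15 in CKO, 1.19 ± 0.13 in CTL). Between genotypes edgeR called 0 of the 74 at 6 h (23 at an unadjusted p under 0.05, 5 by DESeq2) and 0 at 0 h (3 at an unadjusted p under 0.05, 0 by DESeq2), where 18.3% of the 14189 genes at 6 h and 11.7% at 0 h had such a p. The most abundant of the list were Dgka, a kinase that removes diacylglycerol, at 0.53 ± 0.19 at 6 h and 0.01 ± 0.15 at 0 h in CKO over CTL, and Cd4 at 0.76 ± 0.22 at 6 h and 0.32 ± 0.18 at 0 h. For the difference of responses edgeR and DESeq2 called 0, with 9 at an unadjusted p under 0.05, where 3.72% of the 14189 genes were.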

How the data were processed

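Gene counts from 20 RNA sequencing libraries of sorted mouse T cells were used as the authors deposited them, in whole reads per gene and not normalized. Per the submitters' processing notes, the tools were Trimmomatic 0.36, STAR 2.5.2b and featureCounts from Subread 1.5.2 with GRCm38. Libraries came from a stranded mRNA kit, per the labels, but neither the annotation release nor the strand setting of the counting is given in the sources used here. All columns matched a sample, with 0 columns of other samples. Of 49315 gene IDs, 48970 matched GENCODE M21, which gave symbols, positions and exon lengths.

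A filter on low counts (filterByExpr, at least 10 counts in enough libraries and 15 in total) left 28082 genes. All libraries entered 1 edgeR 4.0.16 quasi-likelihood model with a term per group and TMM factors (R 4.3.3), and p-values were adjusted by Benjamini and Hochberg over all genes tested, with a call at 0.05. The script was tested on simulated data. The alternatives were RLE factors, other filters, DESeq2 1.42.0, sex terms, a block on the library number, only the groups compared, and leaving out libraries. The members and lists were chosen with earlier results of these data known.

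Per-library values are given for the antigen-binding, CD3 and ζ chain genes, for up to 5 called rises and 5 called falls of largest size at 6 h in CTL, and for the 4 smallest p between genotypes at 6 h. Those of Lck, Lat, Ptprc, Vav1 and Csk were added after their values were seen. From the wider list, up to 4 called genes a direction with the smallest adjusted p are named, or the 2 most abundant where none was called. The values of 1 gene that this rule names are not reported here. Total counts ran from 26.4 M to 85.6 M per library. No 2 libraries of a group were copies, since the chi-square per degree of freedom was 18.7 to 271 over 43 pairs.

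Same-numbered libraries deviated together from their group means with r of 0.236 to 0.703 between CKO and CTL at 0 h and 0.248 to 0.528 between 6 h and 0 h in CTL (5 pairs each), so those numbers were read as pairing the samples. No r of differently numbered libraries is set beside these. The main model has no term for the number, so its p-values do not use the pairing, and the block on the library number is the alternative that does. Promoter sequences came from RefSeq (GRCm38.p6).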

Additional observations from a re-analysis of the deposited data

Results flagged for a closer look

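In 111 groups of 5 or 6 libraries examined, 7 had 1 library whose gap to its neighbour was large against the range of the group by Dixon's criterion, where chance alone flags about 1 in 20 groups. CTL 6 h library 4.24 was the one that stood apart in 5 of the 7. It had 465 CPM of Trbc1, where the other CTL 6 h libraries had 207 to 268 CPM, and was the lowest of its group for Ptprc at 969 CPM, Vav1 at 81.3 CPM, Csk at 163 CPM and Sla at 131 CPM. The other two were Cd5 at 405 CPM in CTL 0 h library 5.6, the lowest of its group, and Csk at 642 CPM in CKO 0 h library 5.13, the highest of its group.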

How the results depend on the processing

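Between genotypes at either time, and for the difference of the responses, 0 of the 37 genes was called under every alternative run. The 6 h response gave 21 to 28 calls in CKO and 28 to 32 in CTL, and no value changed sign with a call. Counts over all genes moved more. At 6 h between genotypes, 71 genes were called, against 115 with genes of at least 1 CPM, 46 with the replicate block, 8 with only the groups compared, 393 with DESeq2, and 14 to 214 when 1 library was left out. At 0 h between genotypes, 198 were called, against 119 with labelled sex, 621 with only the groups compared, 302 without CKO 0 h libraries 4.24 and 5.6 (70.9% of them higher, against 54.0%), 573 with DESeq2, and 79 to 584 when 1 library was left out. The response over all genes gave 10107 calls in CKO and 17033 in CTL (61.8% and 66.3% higher). In CKO it gave 6600 to 13432 when 1 library was left out. A fit of only genes of at least 1 CPM, where fewer genes were tested, gave 4799 and 7252 (48.8% and 54.0% higher). Among genes of at least 1 CPM, the main fit called 4909 in CKO, 1459 of them higher, and 7626 in CTL, 2411 of them higher. For such genes the share called higher was thus larger in the narrower fit. The cause of these shifts was not tested. The replicate block gave 1 higher and 25 lower of the 37 in CKO and 2 higher and 30 lower in CTL. Of genes of at least 1 CPM, it called 3720 lower in CKO and 5557 in CTL, against 3450 and 5215 in the main fit. It changed no other call among the 37 than those named beside their genes. In CKO the pairs of 6 h and 0 h libraries had r of 0.0935, 0.506 and 0.212, so the numbers were not read as pairing them. A fit of only the groups compared does not apply to the difference of responses.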
